A study of Sus scrofa and Rattus norvegicus with 8 samples.

Results

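The genes described here are those by which cells show protein fragments to T cells, in subcutaneous fat of pigs. There were 10 genes named, by symbol: *B2M*, *TAP1*, *TAP2* and *SLA-1* on the class I side, and *SLA-DRA*, *SLA-DRB1*, *SLA-DQA1*, *SLA-DQB1*, *CD74* and *CIITA* on the class II side. Of these, 8 had an ID among the 25880 gene IDs of the pig table, each with 1 ID, so no duplicates had to be summed. The name table alone found 5 of them (*TAP1*, *TAP2*, *SLA-DQB1*, *CD74* and *CIITA*). It listed the *SLA-DRA* ID under the human symbol HLA-DRA, and the IDs of *B2M* and *SLA-DRB1* were named from the gene lists supplied with the study. *SLA-1* and *SLA-DQA1* were matched to no ID and have no value here, so the class I side rests on *B2M* for its chains, and no classical class I heavy chain was measured.

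The 6 libraries (replicates 1 to 6) came from adult female Bama pigs, a miniature breed, 2-year-old animals for which no treatment is named, and the tissue was the upper layer of the backfat. The study used this depot as a subcutaneous fat to compare pig with other mammals. A rat table of 2 pooled inguinal libraries in the series pairs no IDs with names and was not used here. All 6 pigs form 1 group, so the comparisons are between genes within a library and between pigs. The study's methods describe this depot as collected from separate pigs. The spread between libraries therefore holds that between animals, their handling and the making of each library, which cannot be told apart here.

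Every nucleated cell loads peptides from its own cytosol onto class I molecules, a polymorphic heavy chain held by beta-2-microglobulin, after the TAP1 and TAP2 transporter has carried the peptides into the endoplasmic reticulum. Class II molecules, an alpha and a beta chain such as DR or DQ, carry peptides from engulfed material and are made mainly by macrophages, dendritic cells and B cells; in pigs some endothelium carries them too. CD74, the invariant chain, escorts new class II molecules to the compartment where they are loaded, and CIITA is the coactivator that switches the class II genes on.

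Values are TPM, a transcript abundance corrected for length that sums to the same total in every library, as deposited, so levels of different genes can be compared within a library. The named nuclear genes, 14844 in number, held 24.1% to 26.3% of the TPM in replicates 1, 2, 3 and 6, but 3.34% in replicate 4 and 4.73% in replicate 5. Each library was therefore also rescaled so that its named nuclear genes summed to 1000000 (rescaled TPM). A ratio of 2 genes in the same library is the same on both scales. The tissue label was checked against cell type markers. The adipocyte genes with an ID had a median level of 1318 rescaled TPM. The skeletal muscle genes had 1.61, which rests on *ACTA1* and *CKM*, 2 of 5 listed, as *MYH1*, *MYH2* and *MYH7* had no ID. The mammary epithelial genes, 4 of 5 with an ID, had 3.37, and the milk protein gene *CSN2* was at 0 in 5 of 6 libraries. In whole tissue, fewer cells of a type and less RNA per cell cannot be told apart.

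Of the 11 genes of these names in the RefSeq annotation of Sscrofa11.1, counting *B2M* as 2 copies, 7 lie on chromosome 7, in or beside the pig major histocompatibility complex. *SLA-DRA* occupies chr7:24825037-24830650 on the plus strand, and *SLA-DRB1* chr7:24901386-24914016, *SLA-DQB1* chr7:24969034-24977238, *TAP2* chr7:25045085-25056915 and *TAP1* chr7:25062772-25071989 lie on the minus strand. *CD74* is at chr2:151402210-151409924 and *CIITA* at chr3:32171706-32230775, both on the minus strand. The *B2M* copies are at chr1:126837721-126844043 and chr1:126865767-126878501 on the minus strand. The longest transcript was taken per symbol, at 1038 bases for *B2M*, so the lengths of the copies were not compared. The single *B2M* value of the pig table cannot be assigned to either copy. The class II beta chain genes also belong to families of near-identical genes, so their levels may hold reads of a relative.

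The promoters of class II genes carry a pair of elements, the X box and the Y box, at which the RFX and NF-Y factors gather and CIITA docks, while genes induced by interferon gamma often carry sites for IRF factors. The 4 stretches below hold the X box core (GNNACANNT, the first run of capitals) followed by the Y box core (ATTGG or its complement, the second run), and are shown because these members share that order. All are 5′ to 3′ on the strand of the gene, from RefSeq on Sscrofa11.1: SLA-DRA from chr7:24824954-24825011 (plus strand), SLA-DRB1 from chr7:24914067-24914123 (minus strand), SLA-DQB1 from chr7:24977312-24977370 (minus strand) and CD74 from chr2:151409957-151410008 (minus strand).
SLA-DRA: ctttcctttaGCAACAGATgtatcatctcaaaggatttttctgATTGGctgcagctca
SLA-DRB1: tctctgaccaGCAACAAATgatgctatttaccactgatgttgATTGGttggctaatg
SLA-DQB1: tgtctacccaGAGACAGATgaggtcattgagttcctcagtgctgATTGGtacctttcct
CD74: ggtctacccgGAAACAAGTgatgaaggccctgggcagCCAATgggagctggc

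The X box match starts 73 bases before the RefSeq gene start in *SLA-DRA*, 97 in *SLA-DRB1*, 122 in *SLA-DQB1* and 74 in *CD74*, and the Y box match starts 33, 32, 34 and 27 bases further on in that order. In *CD74* the Y box core is on the other strand. Among the 19559 promoter windows of 300 bases (250 before and 50 after the gene start), 34.1% hold the X box core and 35.4% the Y box core on either strand, but 2.34% hold an X box core on the gene strand with a Y box core, on either strand, within 60 bases downstream. *TAP1* also has such a pair, with 54 bases from start to start. *CIITA* has both cores 73 bases apart and so does not meet this distance. The letters and the distance were chosen after the windows of these genes had been read, so the shares are a description.

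The 3 class I side genes hold the IRF core (GAAANNGAA) near their starts, on the gene strand in *B2M* and *TAP2* and on the other strand in *TAP1*, where it reads as its complement. The stretches are shown for that match, in capitals, again 5′ to 3′ on the gene strand from the same build: B2M from chr1:126844048-126844072, TAP1 from chr7:25071965-25071989 and TAP2 from chr7:25056875-25056893, all on the minus strand.
B2M: acttaGAAAATGAAACTGAAaacgg
TAP1: ccgctTTCGTTTTCCCTTTCccata
TAP2: gaagcGAAAGCGAAaggcg

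In *B2M* and *TAP1* the capitals are 2 overlapping matches. The *B2M* stretch belongs to the copy at chr1:126837721-126844043, and the window of the other copy holds no IRF core. Of all windows, 7.95% hold the IRF core on either strand, and 0.757% hold it at 2 or more positions. *SLA-DRA* has an IRF core on its other strand as well. A match is a run of letters, not a shown site of binding. The map of these matches places each by its distance from the gene start.

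**Figure D1:**
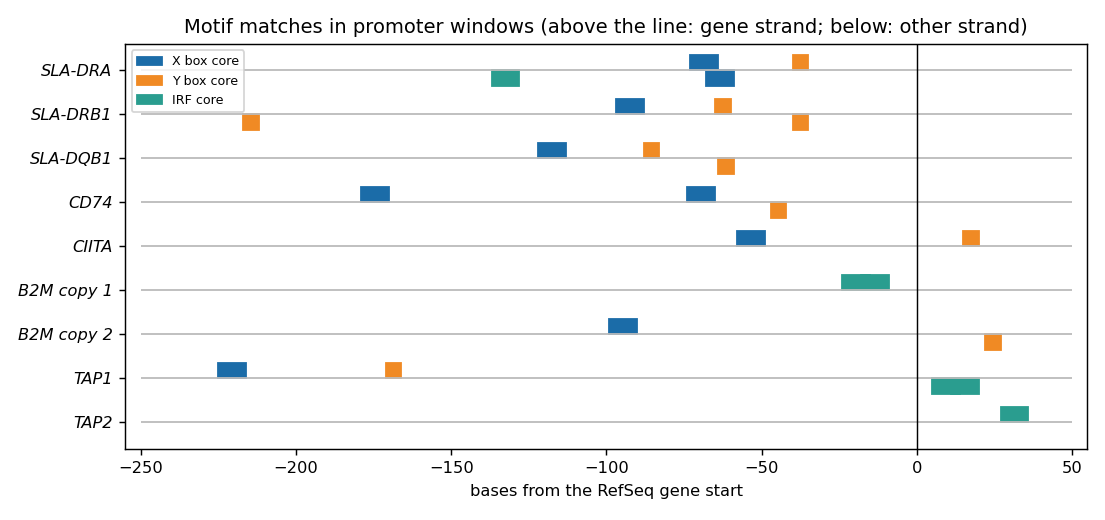
Matches to the X box core, Y box core and IRF core in the 300-base promoter window of each gene with a value, by distance in bases from the RefSeq gene start, with the gene strand above each line and the other strand below. In SLA-DRA, SLA-DRB1, SLA-DQB1 and CD74 an X box core on the gene strand is followed by a Y box core 27 to 34 bases on, and the IRF core starts within 27 bases of the gene start in TAP1, TAP2 and the first B2M copy.

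On the class I side, *B2M*, which encodes the chain common to class I molecules, had a high level beside the named nuclear genes. It had 233, 285, 306, 33.9, 54.1 and 213 TPM as deposited in replicates 1 to 6. Set against the 14844 named nuclear genes, which do not count its ID, it would rank between 75th and 119th in every library. Rescaled, it had 934, 1182, 1170, 1015, 1143 and 809 TPM, a mean of 1042 ± 150 (SD, n = 6). Replicates 4 and 5, the lowest as deposited by a wide margin, lay within the range of the other 4 once rescaled, and replicate 6 was the lowest.

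The transporter genes were expressed far below it. *TAP1* had 4.98, 4.71, 6.61, 0.932, 1.48 and 5.75 TPM as deposited in replicates 1 to 6, and 19.9, 19.6, 25.2, 27.9, 31.3 and 21.8 rescaled TPM, with a rescaled mean of 24.3 ± 4.71 (SD, n = 6). Replicates 4 and 5 were thus the lowest as deposited and the highest after rescaling. *TAP2*, whose product pairs with TAP1 in the transporter, had 4.88, 5.66, 4.92, 0.689, 1.10 and 3.83 TPM as deposited, and 19.5, 23.5, 18.8, 20.6, 23.3 and 14.6 rescaled TPM, a mean of 20.0 ± 3.30 (SD, n = 6). Here replicates 4 and 5 lay within the other 4. Summed, *TAP1* and *TAP2* amounted to 42.3, 36.4, 37.6, 47.8, 47.7 and 45.0 TPM per 1000 TPM of *B2M*. The gap between the transporter and the chain was thus of like size in all 6 libraries. That holds before the trend with transcript length and GC content, given below, is removed. After removal, *TAP1* (0.98) and *TAP2* (0.92) were higher in replicates 4 and 5 than in the other 4, as log2 differences, and *B2M* was not (−0.08).

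On the class II side, the 3 chain genes together reached the level of *B2M*. *SLA-DRA*, the alpha chain of DR, had 175, 182, 215, 16.0, 28.0 and 106 TPM as deposited in replicates 1 to 6, and 702, 754, 822, 481, 592 and 404 rescaled TPM, a mean of 626 ± 163 (SD, n = 6). Replicate 6 was lowest after rescaling, below replicates 4 and 5. *SLA-DRB1*, a beta chain of DR, had 70.7, 106, 79.1, 13.6, 16.7 and 64.2 TPM as deposited, and 283, 442, 302, 407, 352 and 244 rescaled TPM, a mean of 338 ± 76.0 (SD, n = 6). Its replicates 4 and 5 lay within the other 4. *SLA-DQB1*, the beta chain of DQ, had 74.5, 82.0, 83.7, 13.9, 22.0 and 51.8 TPM as deposited, and 298, 340, 320, 417, 466 and 197 rescaled TPM, a mean of 340 ± 94.3 (SD, n = 6). It was highest in replicates 4 and 5 after rescaling and lowest in replicate 6.

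*CD74*, the invariant chain, and *CIITA*, the coactivator, followed another pattern. *CD74* had 263, 241, 324, 13.6, 19.6 and 185 TPM as deposited in replicates 1 to 6, and 1052, 999, 1237, 408, 413 and 703 rescaled TPM, a mean of 802 ± 349 (SD, n = 6). Both replicate 4 and replicate 5 lay under the lowest of the other libraries even after rescaling, and the other 4 averaged 2.43 times their mean. *CIITA* had 4.56, 4.75, 3.45, 0.224, 0.410 and 3.95 TPM as deposited, and 18.2, 19.7, 13.2, 6.71, 8.65 and 15.0 rescaled TPM, a mean of 13.6 ± 5.15 (SD, n = 6). It too was lowest in replicates 4 and 5, the other 4 averaging 2.15 times their mean in rescaled TPM. This is a frequent pattern in these libraries: of the 8866 named nuclear genes with a mean of at least 10 rescaled TPM, 48.6% had both replicates below the other 4, and 12.3% had both above, as *TAP1* and *SLA-DQB1* did.

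**Figure D2:**
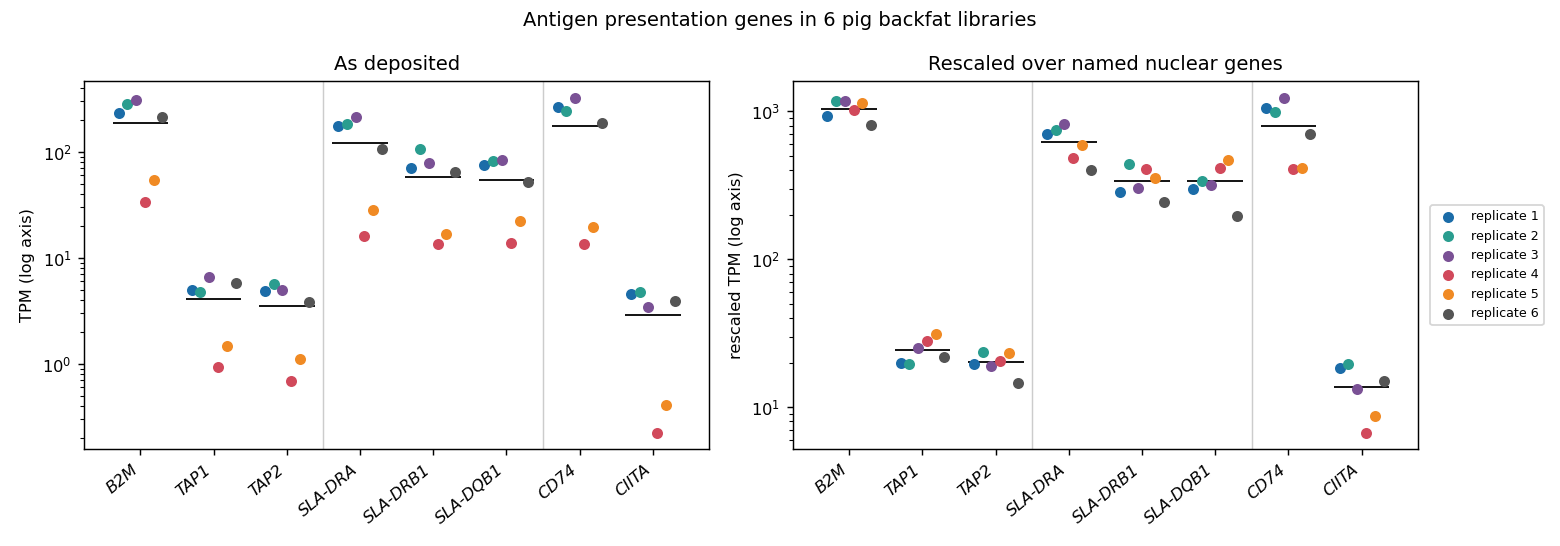
Levels of the 8 genes in the 6 pig libraries, as deposited (left, TPM) and rescaled over named nuclear genes (right, rescaled TPM), both on log axes, with 1 point per library and a line at the mean. As deposited, replicates 4 and 5 are the lowest for all 8 genes; rescaled, they stay lowest for CD74 and CIITA alone and are the highest for TAP1 and SLA-DQB1.

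By mean rescaled TPM the order was *B2M*, *CD74*, *SLA-DRA*, *SLA-DQB1*, *SLA-DRB1*, *TAP1*, *TAP2* and *CIITA*. The means of *SLA-DQB1* and *SLA-DRB1* differed by far less than their SD, and those of *B2M* and *CD74*, *CD74* and *SLA-DRA*, and *TAP1* and *TAP2* differed by less than the larger SD of each pair. Those of *SLA-DRA* and *SLA-DQB1*, and of *TAP2* and *CIITA*, differed by more than either SD. A wide gap in level separated the 5 abundant genes from *TAP1*, *TAP2* and *CIITA*, for the lowest rescaled value of the former was 197 and the highest of the latter was 31.3. As ranks against the named nuclear genes, which do not count the IDs of *B2M* and *SLA-DRB1*, the abundant genes stayed within the first 918 in every library. The other 3 lay at ranks between 4391 and 8727. All 8 genes were over 0.1 TPM, the detection threshold of the study, in every library. Over 1 TPM, 5 were detected in replicate 4 and 7 in replicate 5, with *CIITA* under it in both.

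Ratios within a library were compared next, since they do not depend on its total. The summed class II chains (*SLA-DRA*, *SLA-DRB1* and *SLA-DQB1*) stood to *B2M* as 1.37, 1.30, 1.23, 1.29, 1.23 and 1.04 to 1 in replicates 1 to 6, with a geometric mean of 1.24. On the log2 scale the ratio was 0.31 ± 0.14 (SD, n = 6), and its highest value was 1.32 times its lowest. Replicates 4 and 5 lay among the others, and replicate 6 was the lowest. The single chains moved in different directions in replicates 4 and 5. In rescaled TPM, their mean there was 0.80 times that of the other 4 for *SLA-DRA*, 1.19 times for *SLA-DRB1* and 1.53 times for *SLA-DQB1*. *SLA-DQA1* and the class I heavy chains are missing from this ratio, so its size says nothing of the balance of whole class I and class II molecules.

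The ratio of *CD74* to the class II chains was less even. It was 0.820, 0.650, 0.857, 0.312, 0.293 and 0.833 in replicates 1 to 6, so replicates 4 and 5 lay under the other 4, with a highest to lowest ratio of 2.92. *CIITA* amounted to 14.2, 12.8, 9.14, 5.14, 6.14 and 17.8 TPM per 1000 TPM of class II chains, again lowest in replicates 4 and 5. Set against *CD74* it was 17.3, 19.7, 10.7, 16.5, 21.0 and 21.3 per 1000, where replicates 4 and 5 lay within the other 4. Relative to the chains, *CD74* and *CIITA* were thus both lower in these libraries, and no test was made of this. That holds before the trend with transcript length and GC content, given below, is removed. After removal, the log2 difference of replicates 4 and 5 from the other 4 was −1.07 for *CD74* and 0.36 for *CIITA*. It was −0.37 for *SLA-DRA*, 0.17 for *SLA-DRB1* and 0.53 for *SLA-DQB1*.

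In 6 pairs of genes the log2 ratio was tested with an exact two-sided sign-flip permutation test over the 6 pigs, which can give no p under 0.0312, and adjusted over the 6 pairs by the Benjamini-Hochberg method. The pairs of *SLA-DRA* with *SLA-DQB1*, *SLA-DRB1* with *SLA-DQB1* and *B2M* with *SLA-DRA* were added after the data were seen. *SLA-DRA* exceeded *SLA-DRB1* by 2.48, 1.71, 2.72, 1.18, 1.68 and 1.66 times in replicates 1 to 6, 6 of 6 libraries, with a log2 ratio of 0.87 ± 0.44 (SD, n = 6; exact p = 0.0312, adjusted p = 0.0625). It exceeded *SLA-DQB1* by 2.35, 2.22, 2.57, 1.15, 1.27 and 2.05 times, also in 6 of 6, with a log2 ratio of 0.89 ± 0.49 (SD, n = 6; exact p = 0.0312, adjusted p = 0.0625). The DR alpha chain was therefore above both beta chains in every library, by the least in replicate 4. The adjusted p did not pass 0.05, but the raw p of both pairs was the smallest that 6 pigs can give. Passing then depends on how many other pairs reach that floor. Apart from *SLA-DRA* with *SLA-DRB1*, the pairs that did were among those added after the data were seen. The adjusted test therefore does not decide this.

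*B2M* exceeded *SLA-DRA* by 1.33, 1.57, 1.42, 2.11, 1.93 and 2.00 times in replicates 1 to 6, a log2 ratio of 0.77 ± 0.28 (SD, n = 6; exact p = 0.0312, adjusted p = 0.0625). *CD74* stood to *SLA-DRA* as 1.50, 1.33, 1.50, 0.848, 0.698 and 1.74, above 1 in 4 of 6 libraries, with a log2 ratio of 0.27 ± 0.53 (SD, n = 6; exact p = 0.25, adjusted p = 0.3). The direction turned in replicates 4 and 5, and without them the log2 ratio was 0.60 ± 0.16 (SD, n = 4). *TAP1* stood to *TAP2* as 1.02, 0.833, 1.34, 1.35, 1.35 and 1.50, above 1 in 5 of 6, with a log2 ratio of 0.27 ± 0.32 (SD, n = 6; exact p = 0.0938, adjusted p = 0.141). *SLA-DRB1* and *SLA-DQB1* were close, at 0.949, 1.30, 0.945, 0.974, 0.756 and 1.24, a log2 ratio of 0.015 ± 0.29 (SD, n = 6; exact p = 1, adjusted p = 1). None of the 6 pairs passed the adjusted test, for 3 of which the raw p was the smallest that 6 pigs can give.

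**Figure D3:**
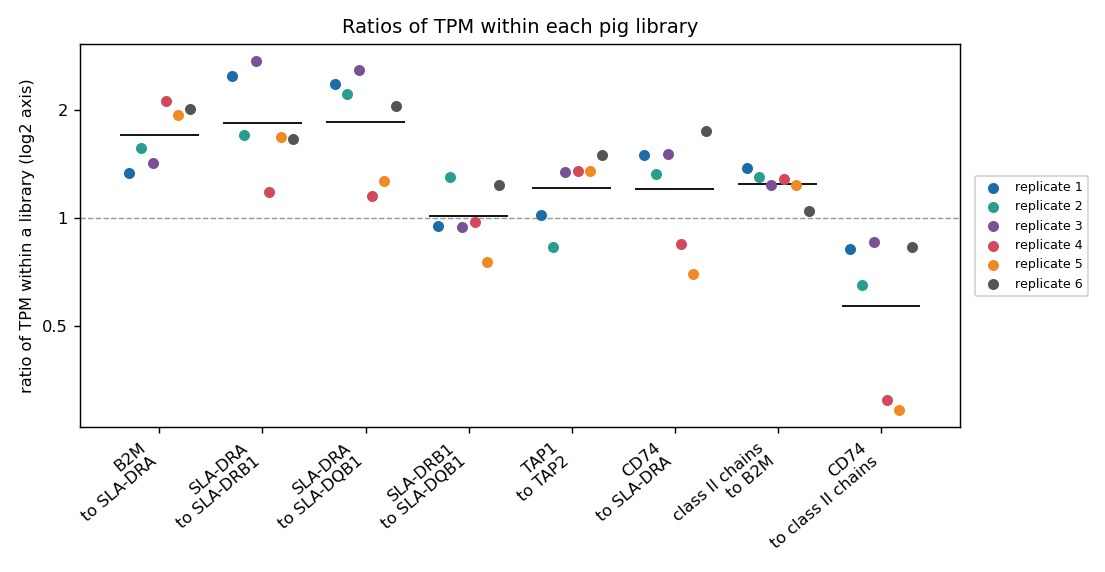
Ratio of TPM between genes, or sums of genes, within each of the 6 pig libraries, on a log2 axis, with 1 point per library, a line at the geometric mean and a dashed line at equality. The class II chains to B2M ratio stays between 1.04 and 1.37 in all 6 libraries, while CD74 to class II chains is near 0.3 in replicates 4 and 5 and at least 0.650 in the other 4.

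The spread between the libraries of the 6 pigs was described by the coefficient of variation (CV, the SD over the mean) of rescaled TPM. It was 0.144 for *B2M*, 0.165 for *TAP2*, 0.194 for *TAP1*, 0.225 for *SLA-DRB1*, 0.260 for *SLA-DRA*, 0.278 for *SLA-DQB1*, 0.379 for *CIITA* and 0.435 for *CD74*. The median over the 8866 genes was 0.282, so 6 of the 8 genes lay under it and *CIITA* and *CD74* above. This rests on replicates 4 and 5: without them the median of the same genes was 0.161, and 7 of the 8 genes lay above it, with *B2M* at 0.179, *CIITA* at 0.180, *TAP2* at 0.192, *SLA-DQB1* at 0.221, *CD74* at 0.222, *SLA-DRB1* at 0.272 and *SLA-DRA* at 0.275, and *TAP1* at 0.120 below. Without replicate 6 the CV of *TAP2* was 0.101. Of those genes, 14.2% had a lower CV than *B2M* and 77.8% a lower CV than *CD74*. As deposited, the 8 genes had CVs of 0.562 to 0.746, beside a median of 0.680.

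Among the 28 pairs of the 8 genes, the log2 ratio of *B2M* to *TAP2* varied least over the 6 pigs, with an SD of 0.146. The SD of *CD74* to *SLA-DQB1* was the largest, at 0.988, although *CD74* escorts class II chains. *CD74* and *CIITA* had an SD of 0.373, the lowest for *CD74* with any of the other 7 genes. Over 8852 other genes the median SD to *CD74* was 0.633, and 752 of them were closer to it than *CIITA*. The genes nearest to *CD74* were *TEF*, a circadian transcription factor, with an SD of 0.124, *CENPJ*, a centriole protein (0.125), *ZNF423*, a regulator of preadipocyte fate (0.139), *GLG1*, a Golgi glycoprotein (0.154), and *PLD3*, a lysosomal nuclease (0.157). Those near to *B2M* included *GRK4* with an SD of 0.0803, *C1orf115* (0.0835), *DYNLT3*, a dynein light chain (0.112), and *NR2F6*, a nuclear receptor (0.113). Of 8853 genes, 23 were closer to *B2M* than *TAP2* was. Closeness over 6 libraries that differ mainly by replicates 4 and 5 is a description of shared pattern only. These SDs were taken without removing the trend with transcript length and GC content. With it removed, replicates 4 and 5 minus the other 4 gave a log2 difference of −0.08 for *B2M* and 0.92 for *TAP2*. It was −1.07 for *CD74* and 0.36 for *CIITA*.

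The length and GC content of transcripts moved with the contrast of replicates 4 and 5 against the other 4. The log2 difference in rescaled TPM (replicates 4 and 5 minus the other 4) was −1.25 for *CD74*, and the median of 118 genes of like length and GC content was −0.18. *CIITA*, with a longest transcript of 10505 bases, was at −1.10 beside −1.46 for 48 like genes. *TAP1* was at 0.46 and *TAP2* at 0.22, beside −0.52 and −0.70 for genes like them, and *SLA-DQB1* was at 0.64 beside 0.12. After the median of like genes was taken off, *CD74* was at −1.07, *CIITA* at 0.36, *TAP1* at 0.98 and *TAP2* at 0.92. *CD74* thus stayed below the other libraries and *CIITA* did not. *B2M*, at 0.09 beside 0.17 for 65 like genes, came to −0.08. *SLA-DRA* came to −0.37, *SLA-DRB1* to 0.17 and *SLA-DQB1* to 0.53. The even ratios of *TAP1* and *TAP2* to *B2M*, and the closeness of *CD74* to *CIITA*, therefore describe values before this removal. So does the low ratio of *CIITA* to the class II chains in replicates 4 and 5. The part of RNA quality in these differences was not tested, as the labels give no measure of it.

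The wider pathway was described from lists of genes that take part in each step. In class I loading, all 9 genes had an ID and a mean of 20.0 to 781 rescaled TPM. The highest were *CANX* (781 ± 79.1), *PDIA3* (736 ± 184) and *CALR* (446 ± 110; SD, n = 6), the chaperones that fold glycoproteins in general and class I heavy chains among them. In 4 of the 9 genes both replicates 4 and 5 were below the other 4, and in 1, *TAP1*, both were above, beside 48.6% and 12.3% of all 8866 genes, so the count does not set this list apart. The counts in the lists that follow are to be read against the same shares. *TAPBP*, which encodes tapasin, the bridge from TAP to class I molecules, was among those below, with 10.3 and 11.0 rescaled TPM in replicates 4 and 5 against 43.7 to 63.1 in the other 4. The immunoproteasome, which cuts peptides that fit class I molecules, had all 5 genes between 24.1 and 67.1, led by *PSME1* (67.1 ± 24.8), *PSMB9* (39.8 ± 5.96) and *PSMB10* (37.5 ± 11.5; SD, n = 6). Both replicates were below the other 4 in 2 of these genes and above in 1.

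Of the 15 genes listed as class I heavy chains, 3 had an ID, and none is a classical presenting chain. They were *FCGRT*, the neonatal Fc receptor (177 ± 47.8 rescaled TPM), *HFE*, a regulator of iron uptake (18.6 ± 3.46), and *MR1*, which shows vitamin B metabolites (1.86 ± 0.53; SD, n = 6). *FCGRT* alone of the 3 had both replicates 4 and 5 above the other 4.

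In class II loading, 12 of 13 listed symbols had an ID, the missing symbol being an older name of *MARCHF1*. The highest were *CTSB* (1087 ± 60.6), *CD74* (802 ± 349) and *LGMN* (756 ± 301; SD, n = 6), of which *CTSB* and *LGMN* encode lysosomal proteases active in many cell types. Both replicates were below the other 4 in 5 of the 12 and above in 2, near the shares over all genes (48.6% and 12.3%). The DM pair, which exchanges the *CD74* fragment for a peptide, was split in this respect: *SLA-DMA* had 22.2 and 27.7 rescaled TPM in replicates 4 and 5 against 54.4 to 86.3 in the other 4, while *SLA-DMB* had 67.8 and 60.7 against 31.6 to 50.6. These subunits of 1 heterodimer thus lay on opposite sides of the other libraries, as *CD74* and *SLA-DQB1* did.

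The factors of the class II promoter had 7 of 8 genes with an ID, at 9.26 to 57.8 rescaled TPM. The highest were *CREB1* (57.8 ± 23.5), *NFYC* (41.7 ± 22.0) and *NFYB* (41.6 ± 7.96; SD, n = 6), all general factors, and *CIITA* (13.6 ± 5.15) was of the same order as *RFX5* (13.3 ± 6.46). Both replicates were below the other 4 in 4 of the 7 and above in none. Among 10 genes of interferon gamma signalling and class I activation, *JAK1* (390 ± 94.4) and *JAK2* (69.1 ± 7.12; SD, n = 6) were among the highest, and both replicates were below the other 4 in 5 of the 10 and above in none, beside 48.6% below over all genes. The cytokine gene *IFNG* itself was low, at 0.870 ± 0.579 (SD, n = 6). *NLRC5*, the class I counterpart of *CIITA*, had 16.1, 18.6, 15.2, 6.39, 8.52 and 10.4 rescaled TPM in replicates 1 to 6. It too was lowest in replicates 4 and 5, where *B2M* was not low. Of all genes, 48.6% had that pattern, and no value of *NLRC5* with the length and GC trend removed is given here. In the costimulation list, the highest of 6 genes with an ID were *CD86* (69.6 ± 34.6), *CD80* (19.7 ± 8.65) and *CD83* (13.9 ± 2.46; SD, n = 6), and in 4 of the 6 both replicates were below the other 4, with *CD40* and *CD274* not among them, beside 48.6% of all genes. No gene of these lists with an ID was at 0 in every pig.

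**Figure D4:**
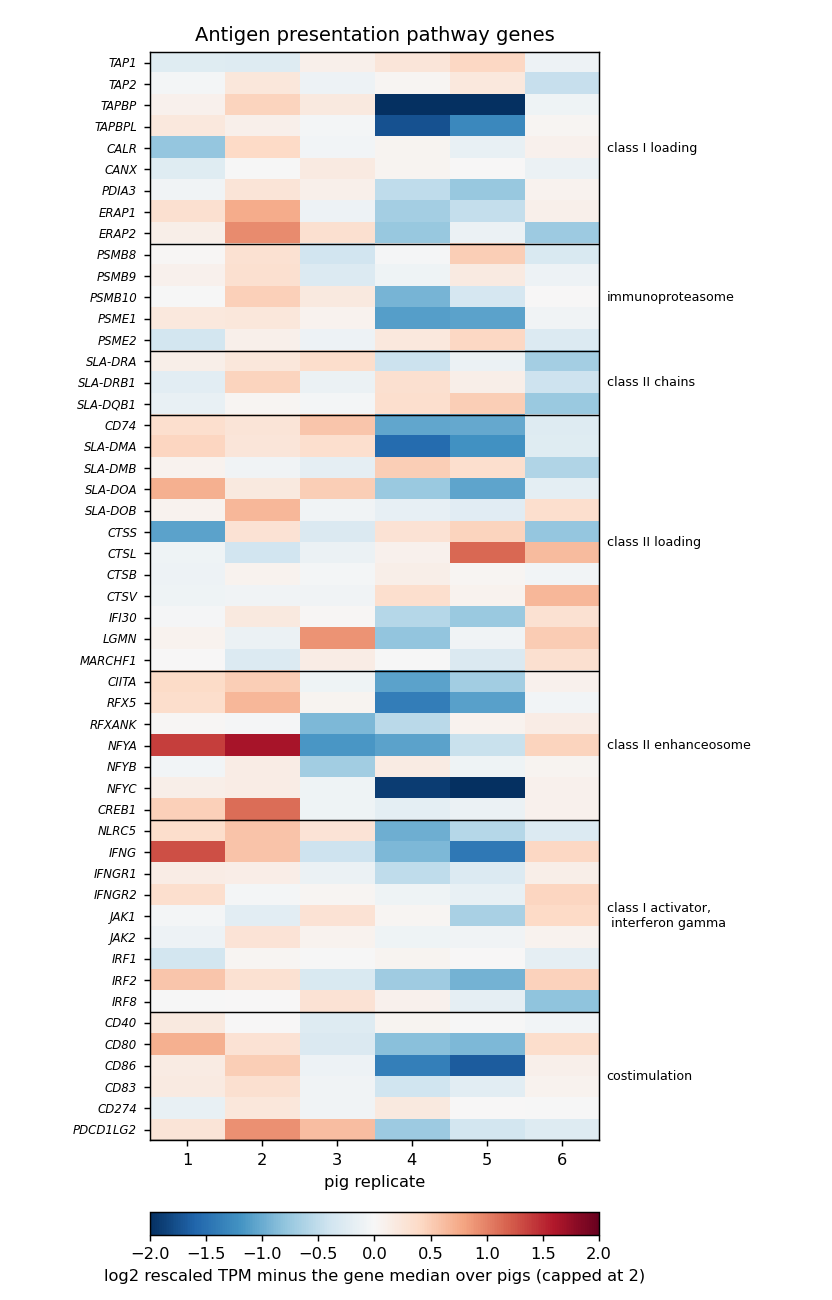
Rescaled TPM of the genes of 7 pathway lists with an ID (B2M, the class I heavy chain list and a gene not reported here are left out) in the 6 pig libraries, as log2 difference from the gene's median over pigs, with colours capped at 2 in either direction. Blue in replicates 4 and 5 marks TAPBP, SLA-DMA, CD74, NFYC and CD86 among others, beside pale or red cells for TAP1, SLA-DMB and SLA-DQB1.

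Markers of cells that carry class II molecules were set beside the chains. Macrophage markers, 11 of 11 with an ID, had a median level of 56.7 rescaled TPM, and endothelial markers, 6 of 7, had 65.0. Markers of B cells, 6 of 6 with an ID, had a median of 2.06 and means of 0.187 to 34.1. Those of dendritic cells, 6 of 8, had a median of 1.41 and means of 0.874 to 5.78. The B cell gene *MS4A1* was at 1.22 rescaled TPM on average, and the dendritic cell genes *FLT3* at 1.28 and *XCR1* at 1.18. The summed macrophage markers were 744, 772, 918, 603, 421 and 971 in replicates 1 to 6, and the summed class II chains were 1283, 1536, 1444, 1305, 1410 and 844. Replicate 6 had the least class II chain RNA but not a low macrophage marker sum. Of the 11 markers, 6 were highest in replicate 6, 3 in replicate 2 and 2 in replicate 3. Its place as the highest sum rests on *MRC1*, a mannose receptor gene, for without it the sum was 749 in replicate 6 and 759 in replicate 3. In replicates 4 and 5, 7 of the 11 macrophage markers and 5 of the 6 endothelial markers were below the other 4, beside 48.6% of all genes, and the class II chain sum was not below. The summed endothelial markers ranged from 658 to 1445, of which *PECAM1*, with a mean of 714, was the main part. The summed B cell markers ranged from 29.7 to 72.4, of which *JCHAIN*, a plasma cell gene, was the main part. The part of these cell types in the levels of the class II genes was not tested.

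**Figure D5:**
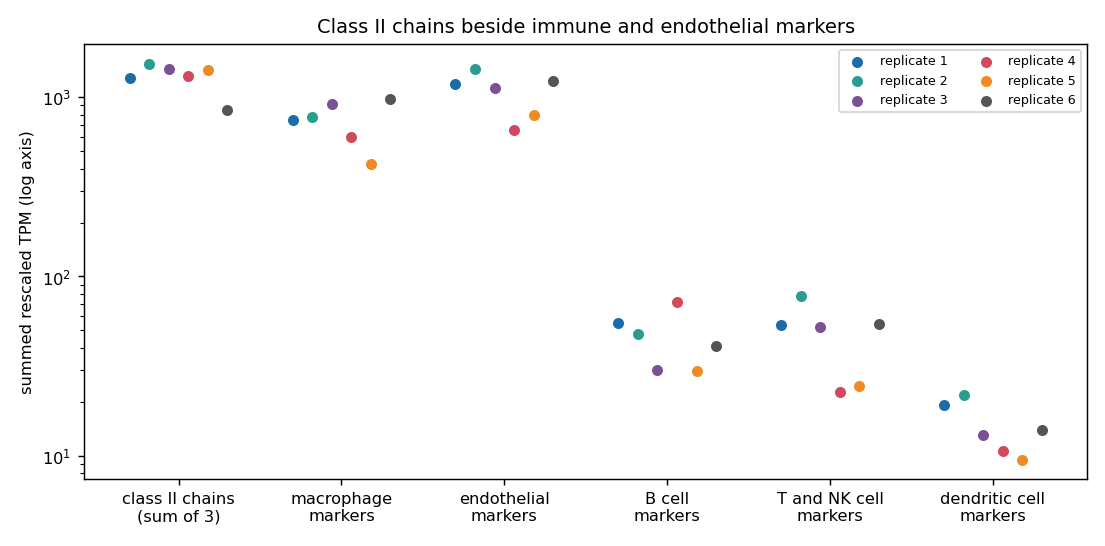
Summed rescaled TPM of the 3 class II chains and of marker lists of macrophages, endothelium, B cells, T and NK cells and dendritic cells in the 6 pig libraries, on a log axis, 1 point per library. Replicate 6 has the lowest class II chain sum (844) beside a macrophage marker sum of 971, which is the highest with MRC1 counted and not without it; B cell, T and NK cell and dendritic cell sums lie under 78 in every library.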

How the data were processed

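Total RNA of the pig fat was depleted of ribosomal RNA and made into stranded libraries. The authors computed TPM per gene, naming kallisto 0.43.0 in the submitters' notes, and deposited 1 table per species. TPM sum to the same total in each library and keep no read counts, so depth is unknown and no counting error can be given. The build named is Sscrofa11.1. From the deposited TPM, each library was rescaled over the named nuclear genes among 14857 named IDs, and ratios, CVs (mean of at least 10 rescaled TPM) and exact sign-flip permutation tests (64 sign patterns, Benjamini-Hochberg over 6 pairs, of which 3 were planned and 3 added after the data were seen) were computed with Python 3.11.15, numpy 2.4.6 and pandas 2.3.3, and tested on simulated data. The members, lists and tests were chosen with earlier results of these data known. The genes named in the text are the members, the 3 highest of each pathway list, and the 5 nearest to *CD74* and to *B2M* by the SD of the log2 ratio; *TAPBP*, *SLA-DMA*, *SLA-DMB*, *NLRC5*, *IFNG*, *RFX5*, *MR1* *CD40*, *CD274* and the single markers were named after their values were seen. Some genes that this rule or the lists hold are not reported here. Length and GC content came from the longest RefSeq transcript, known for 8259 genes (93.3%), in bins of like genes (10 by length and 10 by GC content), a step added after the data were seen. Sequences were read with samtools 1.23.1. Planned pairs with *SLA-1* or *SLA-DQA1* were not run.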

Additional observations from a re-analysis of the deposited data

Results flagged for a closer look

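In 41 sets of 6 values (members on both scales, ratios and summed lists), 1 library was looked for that stood far from the other 5 by its gap relative to the whole range, which chance gives in about 1 of 20 sets, and 3 were found. The summed class II chains were 844 rescaled TPM in replicate 6, against 1283 to 1536 in the other 5. The summed rescaled TPM of the 3 class I heavy chain genes with an ID, mostly *FCGRT*, was 287 in replicate 5, against 160 to 207. The summed mammary epithelial markers were 23.0 in replicate 4, against 7.91 to 11.6.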

How the results depend on the processing

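The log2 ratio of the class II chains to the class I side (0.31) became −1.35 when the mean of the log2 TPM replaced the sum, since 3 genes are then averaged and not summed, 1.00 with *CD74* added to the class II side, and 0.060 with *FCGRT*, *HFE* and *MR1* added to *B2M*. Leaving out each pig in turn gave 0.28 to 0.36 for it, 0.76 to 1.00 for *SLA-DRA* to *SLA-DRB1*, 0.79 to 1.03 for *SLA-DRA* to *SLA-DQB1*, 0.70 to 0.84 for *B2M* to *SLA-DRA*, 0.16 to 0.43 for *CD74* to *SLA-DRA*, 0.21 to 0.38 for *TAP1* to *TAP2*, and −0.058 to 0.10 for *SLA-DRB1* to *SLA-DQB1*, whose sign turned. With 5 pigs no p under 0.0625 can be had, and with 4 none under 0.125. A pseudocount of 1, removing the length and GC trend, and leaving out replicates 4 and 5 turned none of the tested pairs. They moved no ratio of these pairs, nor that of the class II chains to *B2M*, by more than its SD. These settings were not run for the ratios of *TAP1* and *TAP2* to *B2M*, or of *CD74* and *CIITA* to the class II chains. Gene by gene, with the trend removed, *TAP1* (0.98) and *TAP2* (0.92) were higher in replicates 4 and 5, as log2 differences from the other libraries. *B2M* was not (−0.08). On the same measure *CD74* was lower (−1.07) and *CIITA* was not (0.36). All 8 mean levels moved by more than their SD with rescaling or quantile normalization, as each library is then multiplied by 3.80 to 29.9. The CV of *TAP1* (0.194 rescaled) was 0.404 after quantile normalization and 0.389 with the length and GC trend removed, that of *TAP2* (0.165) 0.332 and 0.371, and that of *CIITA* (0.379) 0.179 and 0.222, so their order among the members turned. Heavy chain *SLA-1* alone on the class I side could not be computed without an ID. No paired analysis was possible because pigs and rats, which share replicate numbers, were not compared.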
